A study of Mus musculus with 18 samples.

Results

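The genes described here were 10 acute inflammatory effector genes of synovial macrophages, Irg1, Lrg1, Bst1, Wfdc17, Saa3, Slpi, Sod2, Srgn, Trem1 and Nos2, of 24421 gene symbols counted. They were chosen by name as itaconate, acute-phase and antimicrobial effectors, in part because they were higher after immune complexes, so their difference between treated and untreated libraries is given as a description with no test. RNA was sequenced from macrophages sorted out of the collagenase-digested synovium (the joint lining) of wild-type C57BL/6 mice (C57BL/6J in the study's methods) of both sexes, 8 to 20 weeks old. The sort made 3 subsets, LYVE1+CX3CR1+, which was gated as negative for MHCII, MHCII+CD11c- and MHCII+CD11c+. Mice were culled 8 h after intravenous immune complexes (IC) of 40 µg ovalbumin with 150 µg of rabbit anti-ovalbumin antibody, or were controls, labelled Healthy and Control and called untreated here. Whether the controls had a vehicle injection was not given in the sources used here. Each of the 6 groups had 3 libraries, and each library pooled the 6 legs of 3 mice. Animals within a pool cannot be told apart, and whether the 3 subsets of a replicate number came from the same pool was not given in the sources used here.

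The 18 libraries held between 245903 and 2172358 assigned reads, with the lowest totals in the MHCII+CD11c- libraries after IC (245903 to 973951). Levels are library-scaled counts (CPM) normalised by the trimmed mean of M-values, and 1 read was worth 3.77 CPM in the shallowest library. Of the sort markers, H2-Ab1 and Itgax went with the labels. H2-Ab1, a chain of MHCII, lay at 20.1 to 44.3 CPM in the LYVE1+CX3CR1+ libraries and at 2670 CPM or more in every other library. Itgax, which encodes CD11c, averaged 270 ± 32.1 and 338 ± 57.4 CPM (SD, n = 3) in untreated and IC libraries of MHCII+CD11c+ cells. In MHCII+CD11c- cells it averaged 6.02 ± 6.29 and 45.2 ± 22.1 CPM. Lyve1 was at 2171 to 2563 CPM in untreated and 3172 to 3555 CPM in IC libraries of LYVE1+CX3CR1+ cells. In MHCII+CD11c- cells it was at 702 to 882 and 516 to 2290 CPM, so the IC libraries overlapped untreated LYVE1+CX3CR1+ ones. In MHCII+CD11c+ cells it was at 329 to 439 and 1001 to 1232 CPM. The macrophage receptor gene Csf1r was between 746 and 3326 CPM in all 18 libraries. Neutrophil markers were not absent from the MHCII+ sorts. The sum of 23 such genes was 19.7 to 32.2 CPM in 5 of the 6 LYVE1+CX3CR1+ libraries and 215 CPM in the remaining one (IC, replicate 2), 1029 to 2408 CPM in untreated and 1853 to 5539 CPM in IC libraries of MHCII+CD11c- cells, and 152 to 926 CPM in untreated and 1376 to 3056 CPM in IC libraries of MHCII+CD11c+ cells. The sum of 6 B cell markers was 258 to 418 CPM in MHCII+CD11c-, 80.9 to 111 CPM in MHCII+CD11c+ and 2.15 CPM or lower in LYVE1+CX3CR1+ libraries, and that of 24 fibroblast markers was 324 to 1051 CPM over all 18. In bulk libraries such as these, fewer cells of a type and less RNA per cell cannot be told apart.

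These genes act at different points of an inflammatory response. Irg1 (official symbol Acod1) encodes the mitochondrial enzyme that makes itaconate from the TCA-cycle intermediate cis-aconitate in activated macrophages, and Nos2 encodes inducible nitric oxide synthase. Saa3 is a serum amyloid A of macrophages and other extrahepatic cells, and Lrg1 encodes a secreted leucine-rich glycoprotein that binds the TGF-beta co-receptor endoglin. Slpi and Wfdc17 encode small secreted proteins with whey acidic protein domains, Slpi being an inhibitor of neutrophil serine proteases. Sod2 is the superoxide dismutase of mitochondria, Srgn the core protein of the proteoglycan serglycin in secretory granules, Bst1 (CD157) a membrane enzyme that cleaves NAD, and Trem1 a receptor that amplifies inflammatory signals of myeloid cells through the adaptor encoded by Tyrobp.

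In GRCm38 coordinates of RefSeq, Irg1 lies on chr14:103047012-103056573, Lrg1 on chr17:56119678-56121946, Bst1 on chr5:43818880-43843468, Wfdc17 on chr11:83704056-83706269, Saa3 on chr7:46711998-46719615, Slpi on chr2:164354070-164356507, Sod2 on chr17:13007839-13018119, Srgn on chr10:62493833-62527445, Trem1 on chr17:48232713-48246927 and Nos2 on chr11:78920787-78960226. Counts were summed over exons of each gene. Bst1 overlaps Fbxl5 on the opposite strand, and whether the counting used strand was not given in the sources used here, so reads of the pair may not be separated. Slpi overlaps the microRNA gene Mir7678, which had 6 counts in the 18 libraries. Saa1, Saa2 and Saa4, the neighbours of Saa3 in its family, had 18, 17 and 5 counts, and for each of them all counts lay in a single library.

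The 250 bases before the start site were read for 4 of the genes, Irg1, Trem1, Saa3 and Srgn. The levels of Irg1, Trem1 and Saa3 were highest in the MHCII+ subsets after IC, and the mean level of Srgn in LYVE1+CX3CR1+ cells. Sequences are from RefSeq (GRCm38.p6), written 5′ to 3′ on the gene's own strand. Capitals mark matches, on either strand, to a motif for NF-kB (GGANTTNCC), C/EBP (TTGCNNAA), STAT (TTCNNNGAA) or the TATA box (TATAAA), where N is any base.
Irg1, chr14:103046762-103047011 (+ strand): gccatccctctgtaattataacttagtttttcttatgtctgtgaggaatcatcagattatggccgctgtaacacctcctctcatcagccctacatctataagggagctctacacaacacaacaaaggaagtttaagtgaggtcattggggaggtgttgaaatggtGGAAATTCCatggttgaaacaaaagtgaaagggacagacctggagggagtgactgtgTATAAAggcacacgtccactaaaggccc
Trem1, chr17:48232489-48232738 (+ strand): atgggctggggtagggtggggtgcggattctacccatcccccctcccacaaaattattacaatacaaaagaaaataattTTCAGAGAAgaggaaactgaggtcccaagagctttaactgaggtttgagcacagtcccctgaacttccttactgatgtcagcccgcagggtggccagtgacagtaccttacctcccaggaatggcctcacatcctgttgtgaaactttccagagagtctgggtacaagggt
Saa3, chr7:46715677-46715926 (- strand): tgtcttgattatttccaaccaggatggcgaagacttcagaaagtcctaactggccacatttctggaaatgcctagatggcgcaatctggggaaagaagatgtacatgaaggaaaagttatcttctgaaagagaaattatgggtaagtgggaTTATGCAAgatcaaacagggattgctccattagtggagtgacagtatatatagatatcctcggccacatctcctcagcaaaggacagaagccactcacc
Srgn, chr10:62527446-62527695 (- strand): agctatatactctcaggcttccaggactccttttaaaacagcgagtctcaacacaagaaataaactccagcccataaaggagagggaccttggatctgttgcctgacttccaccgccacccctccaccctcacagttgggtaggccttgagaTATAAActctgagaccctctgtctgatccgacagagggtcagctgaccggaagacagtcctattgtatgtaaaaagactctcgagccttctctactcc
The first capitals of Irg1 are the NF-kB match, on the opposite strand 85 to 77 bases before the start, and the second the TATA match. Those of Trem1 are a STAT match, those of Saa3 a C/EBP match on the opposite strand, and those of Srgn a TATA match. The start sites are those of the promoter table, which for Saa3 lies 3939 and for Trem1 26 bases inside the gene span given above, and Srgn had a second start site, whose window is not shown. Windows of 300 bases, from 250 before to 50 after the start, were given for 8 of the 10 genes and not for Bst1 or Nos2. Among these 8 the NF-kB motif was found in Irg1 alone, the C/EBP motif in Saa3 and Slpi, the STAT motif in Sod2 and Trem1, and the TATA motif in Irg1, Lrg1, Srgn and Wfdc17. Of 32851 such windows over the genome, 3.95% held the NF-kB, 10.8% the C/EBP, 8.3% the STAT and 13.6% the TATA letters. A match is a string of letters and not a measured binding site, and a window without one says nothing of the factor.

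The genes fell into 3 patterns by subset. Srgn, Wfdc17 and Bst1 had their highest means in LYVE1+CX3CR1+ cells, although untreated Srgn overlapped between all 3 subsets. Irg1, Lrg1, Trem1, Saa3 and Slpi were low in LYVE1+CX3CR1+ cells and reached their highest levels in the MHCII+ subsets after IC. Sod2 was at similar levels in all 3. Nos2 was close to the limit of detection. Per kb of exon, Srgn and Wfdc17 had the highest mean levels of the 10 genes in all 6 groups, at 576 ± 30.0 and 693 ± 176 CPM per kb (SD, n = 3) in LYVE1+CX3CR1+ cells after IC, against 4.61 ± 3.01 CPM per kb for Irg1 in the same libraries.

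**Figure D1:**
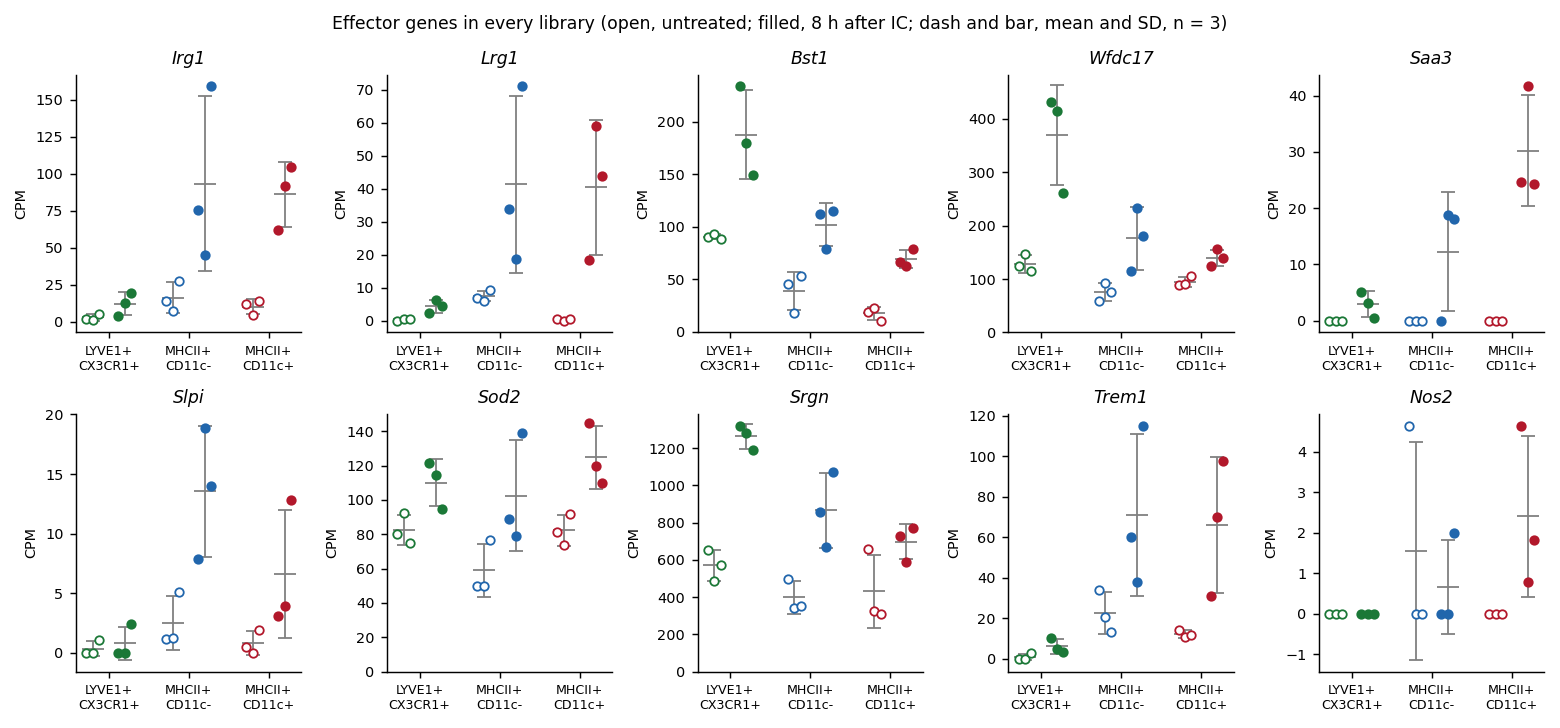
CPM (linear axis, own scale for each gene) of the 10 effector genes in all 18 libraries, by subset, with untreated libraries as open and IC libraries as filled points and the mean and SD of 3 libraries in grey. Srgn, Wfdc17 and Bst1 were highest in the LYVE1+CX3CR1+ libraries after IC, whereas Irg1, Lrg1 and Trem1 stayed at 19.7 CPM or lower there and reached 159, 71.1 and 115 CPM in the MHCII+CD11c- libraries.

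The first question was where these genes were expressed before treatment. This comparison used the untreated libraries, which also form the control side of the contrast that the genes were chosen on. Of the 9 genes that passed the filter on low counts, 5 differed between untreated LYVE1+CX3CR1+ and MHCII+CD11c- cells (adjusted p under 0.05, quasi-likelihood F test of edgeR, Benjamini-Hochberg over the 10550 genes tested), where 11.4% of all genes did. Between LYVE1+CX3CR1+ and MHCII+CD11c+ cells 2 differed, where 21.8% of all genes did, and between the MHCII+ subsets 2 differed, where 3.49% did. Lrg1, Saa3 and Slpi passed the filter only through the IC libraries, with 2, 0 and 0 untreated libraries at or above its minimum of 6.55 CPM, where 3 libraries were needed, and Nos2 did not pass. Lrg1 is 1 of the 5 genes called in the first comparison and 1 of the 2 in the last. No test is read for Lrg1, Saa3 or Slpi, whose untreated levels are given below as a description.

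Trem1 was at 0, 0 and 2.69 CPM in the 3 untreated LYVE1+CX3CR1+ libraries, at 33.7, 20.8 and 13.3 CPM in MHCII+CD11c- and at 14.2, 10.5 and 11.6 CPM in MHCII+CD11c+ libraries. The LYVE1+CX3CR1+ libraries did not overlap those of either MHCII+ subset. The log2 difference was -4.37 (SE 0.75, adjusted p = 0.000243, edgeR) from MHCII+CD11c- and -3.48 (SE 0.76, adjusted p = 0.00115) from MHCII+CD11c+ cells, and it became -7.88 and -6.99 without LYVE1+CX3CR1+ replicate 3, the only one of those libraries with a read of the gene. The MHCII+ subsets did not pass the threshold against each other (-0.88, SE 0.52, adjusted p = 0.438). Neutrophil markers, in sum 1029 to 2408 CPM in MHCII+CD11c- and 152 to 926 CPM in MHCII+CD11c+ libraries, were also higher in the MHCII+ subsets, and their part in the result was not tested.

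Irg1 was also lower in the untreated LYVE1+CX3CR1+ cells, at 2.02, 1.25 and 5.38 CPM, than in MHCII+CD11c- cells, at 13.9, 7.33 and 27.6 CPM (log2 difference -2.43, SE 0.67, adjusted p = 0.0164, edgeR). This call was lost without LYVE1+CX3CR1+ replicate 1 (adjusted p = 0.0725) or 2 (0.0829) and without MHCII+CD11c- replicate 3 (0.184). The MHCII+CD11c+ libraries, at 12.1, 4.6 and 14 CPM, overlapped both other subsets and did not pass the threshold against LYVE1+CX3CR1+ cells (-1.77, SE 0.66, adjusted p = 0.0558), although the difference passed in DESeq2 (-1.80, adjusted p = 0.0246) and with a replicate block (-1.84, adjusted p = 0.0123, edgeR).

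Untreated Lrg1 was higher in MHCII+CD11c- cells than in both other subsets, on few reads. It was at 6.98, 6.11 and 9.19 CPM in untreated MHCII+CD11c- libraries, and each of the other subsets held 2 reads of it over 3 libraries. The ratio of levels was 18.6 against LYVE1+CX3CR1+ cells (95% exact counting interval 4.51 to 164) and 20.7 against MHCII+CD11c+ cells (5.03 to 183). Such intervals cover counting error only. The MHCII+CD11c- libraries held 6, 5 and 9 reads, and the gene passed the filter on low counts only through the IC libraries. Neutrophil markers were highest in the same subset, 1029 to 2408 CPM in sum, and their part in the result was not tested.

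Bst1 went the other way. Untreated LYVE1+CX3CR1+ libraries held 90.3, 93.4 and 88.3 CPM, MHCII+CD11c- libraries 45.3, 18.3 and 53.1 CPM and MHCII+CD11c+ libraries 18.9, 23 and 10.6 CPM. The LYVE1+CX3CR1+ libraries lay above all others, with a log2 difference of 1.20 (SE 0.29, adjusted p = 0.00556, edgeR) from MHCII+CD11c- and 2.39 (SE 0.29, adjusted p = 7.03e-07) from MHCII+CD11c+ cells. The lower level in MHCII+CD11c+ than in MHCII+CD11c- cells (-1.19, SE 0.32, adjusted p = 0.0363) was lost without MHCII+CD11c- replicate 1 (adjusted p = 0.102) or 3 (0.254), without MHCII+CD11c+ replicate 1 (0.0714) or 3 (0.198), and when only the libraries compared were fitted (0.142).

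Wfdc17 was at 124, 147 and 115 CPM in untreated LYVE1+CX3CR1+ and at 58.1, 92.9 and 76.6 CPM in MHCII+CD11c- libraries, which did not overlap (log2 difference 0.76, SE 0.23, adjusted p = 0.0322, edgeR). The call was lost without LYVE1+CX3CR1+ replicate 1 (adjusted p = 0.0684) or 2 (0.124) and without MHCII+CD11c- replicate 1 (0.16) or 3 (0.0745). Against the MHCII+CD11c+ libraries, at 88.8, 90.7 and 105 CPM, it did not pass the threshold (0.43, SE 0.22, adjusted p = 0.182).

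Srgn and Sod2 passed the threshold in no comparison of untreated subsets without a replicate block. With the block by pool, Srgn passed between LYVE1+CX3CR1+ and both other subsets (adjusted p = 0.0315 and 0.0366, edgeR). Untreated Srgn ranged from 310 to 657 CPM over the 9 libraries, with a log2 difference of 0.52 (SE 0.23, adjusted p = 0.164, edgeR) between LYVE1+CX3CR1+ and MHCII+CD11c- cells. Untreated Sod2 ranged from 50 to 91.6 CPM, and its means in LYVE1+CX3CR1+ and MHCII+CD11c+ cells, 82.4 ± 8.86 and 82.2 ± 9.02 CPM (SD, n = 3), were nearly equal. Slpi was at 5.11 CPM or lower in every untreated library. Saa3 had no read in any of the 9 untreated libraries.

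The next comparison was IC against untreated libraries within each subset. Because the genes were picked partly on this contrast, counts of calls and of libraries that do not overlap are printed with the background and nothing is read from them. In LYVE1+CX3CR1+ cells 2 of the 9 genes tested were called higher, where 0.246% of all genes were called higher and 0.218% lower. In MHCII+CD11c- cells 5 were called higher (background 0.55% higher, 0.512% lower), and in MHCII+CD11c+ cells 5 (background 0.483% higher, 0.19% lower). Every IC library lay above every untreated library for 7, 8 and 8 of the 9 genes in the 3 subsets, in that order, where 9.6%, 5.68% and 8.51% of all genes did so.

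**Figure D2:**
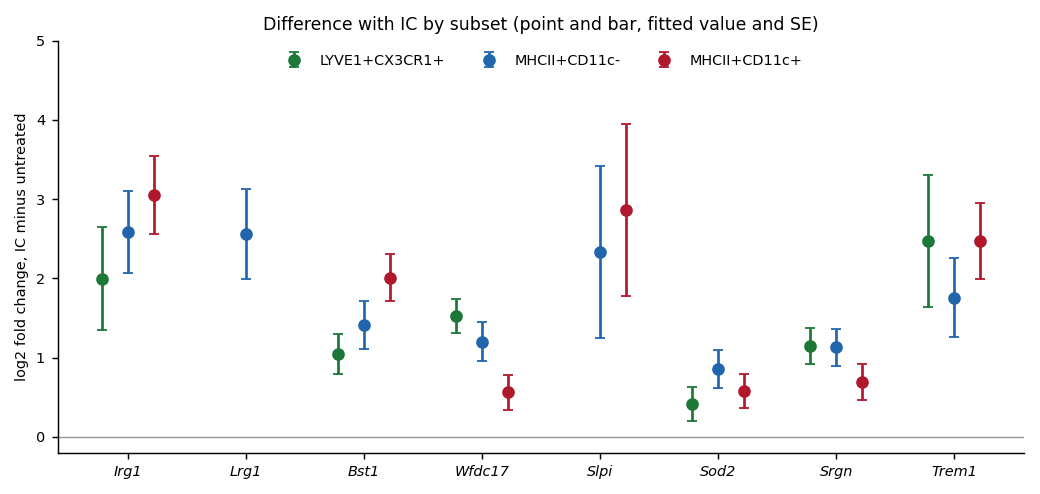
Fitted log2 fold change with its SE, IC minus untreated, in each subset, for gene and subset pairs with more than 3 reads in the untreated group. Bst1 goes from 1.05 in LYVE1+CX3CR1+ to 2.01 in MHCII+CD11c+ cells, while Wfdc17 goes from 1.52 down to 0.56.

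Srgn, the granule proteoglycan, went from 652, 488 and 571 CPM to 1318, 1283 and 1191 CPM in LYVE1+CX3CR1+ cells. In MHCII+CD11c- cells it went from 499, 344 and 354 CPM to 855, 670 and 1072 CPM. In both subsets all IC libraries were above all untreated ones, and the log2 fold changes were 1.15 (SE 0.23) and 1.13 (SE 0.23). In MHCII+CD11c+ cells the libraries overlapped, since untreated replicate 1, at 657 CPM, lay above IC replicate 2, at 591 CPM (0.69, SE 0.23).

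Wfdc17 reached 431, 415 and 261 CPM after IC in LYVE1+CX3CR1+ cells, a log2 fold change of 1.52 (SE 0.22). After IC it was at 115, 233 and 180 CPM in MHCII+CD11c- cells (1.20, SE 0.25) and at 125, 156 and 139 CPM in MHCII+CD11c+ cells (0.56, SE 0.22). All IC libraries were above the untreated libraries of their subset. The difference with IC was 0.96 larger (log2, SE 0.31) in LYVE1+CX3CR1+ than in MHCII+CD11c+ cells.

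Bst1, the NAD-cleaving enzyme, was at 234, 180 and 150 CPM after IC in LYVE1+CX3CR1+ cells, at 112, 79.1 and 115 CPM in MHCII+CD11c- and at 66.3, 62.9 and 78.6 CPM in MHCII+CD11c+ cells. The untreated and IC libraries overlapped in none of the subsets, and the log2 fold changes were 1.05 (SE 0.25), 1.41 (SE 0.30) and 2.01 (SE 0.30). Its order by subset was the same as before treatment, LYVE1+CX3CR1+ above MHCII+CD11c- above MHCII+CD11c+, with no overlap between the subsets' IC libraries. Fbxl5, the gene on the opposite strand, averaged 46.7 ± 6.89 and 47.6 ± 3.47 CPM (SD, n = 3) without and with IC in LYVE1+CX3CR1+ cells, 44.5 ± 12.9 and 87.8 ± 42.3 CPM in MHCII+CD11c- and 38.9 ± 6.39 and 63.3 ± 17.3 CPM in MHCII+CD11c+ cells.

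Irg1, the itaconate enzyme, was at 3.95, 12.7 and 19.7 CPM after IC in LYVE1+CX3CR1+ cells, at 75.8, 45.2 and 159 CPM in MHCII+CD11c- and at 61.7, 92 and 105 CPM in MHCII+CD11c+ cells. The log2 fold changes were 2.00 (SE 0.64), 2.58 (SE 0.52) and 3.05 (SE 0.49), and only in LYVE1+CX3CR1+ cells did an IC library lie within the untreated range. After IC, the LYVE1+CX3CR1+ libraries were below all MHCII+ libraries, with log2 differences of -3.02 (SE 0.49) from MHCII+CD11c- and -2.82 (SE 0.48) from MHCII+CD11c+ cells, and the MHCII+ subsets overlapped.

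Lrg1 went from 2 reads in 3 untreated libraries to 2.26, 6.33 and 4.32 CPM in LYVE1+CX3CR1+ cells (ratio 10.7, 95% exact counting interval 2.67 to 93.4) and to 18.5, 59 and 43.9 CPM in MHCII+CD11c+ cells (ratio 123, interval 33.4 to 1022). In MHCII+CD11c- cells, where it was present before treatment, it was at 34, 18.8 and 71.1 CPM (log2 fold change 2.56, SE 0.56; 1.82, SE 0.67, without IC replicate 3). The difference between the MHCII+ subsets in untreated libraries was not seen after IC, when the libraries of the subsets overlapped (means 41.3 ± 26.9 and 40.4 ± 20.4 CPM, SD, n = 3).

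Trem1 was at 10.2, 4.74 and 3.36 CPM after IC in LYVE1+CX3CR1+ cells, at 60.1, 37.6 and 115 CPM in MHCII+CD11c- and at 30.9, 70 and 97.5 CPM in MHCII+CD11c+ cells. All IC libraries were above the untreated ones of their subset. The log2 fold changes were 2.48 (SE 0.83), 1.76 (SE 0.50) and 2.48 (SE 0.48), the first resting on 5 untreated reads, all in replicate 3.

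Saa3, without a read before treatment, was at 24.7, 41.7 and 24.4 CPM after IC in MHCII+CD11c+ cells. Against a floor of 3 reads per untreated library this was at least 15.3-fold higher. In MHCII+CD11c- cells it was at 0, 18.8 and 18 CPM, a mean at least 3.35-fold above the floor, and the library at 0 was of low depth, where 3 reads are 7.84 CPM. In LYVE1+CX3CR1+ cells it was at 5.08, 3.16 and 0.48 CPM, a mean at least 1.44-fold above the floor. The levels were highest in MHCII+CD11c+ cells and did not overlap those of either other subset.

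Slpi, the protease inhibitor, was at 7.84, 18.8 and 14 CPM after IC in MHCII+CD11c- cells (log2 fold change 2.33, SE 1.09) and at 3.08, 3.93 and 12.8 CPM in MHCII+CD11c+ cells (2.87, SE 1.08). It was at 0, 0 and 2.4 CPM in LYVE1+CX3CR1+ cells (ratio to untreated 2.15, 95% exact counting interval 0.351 to 22.5), where no difference was detectable at this depth. The counts behind the MHCII+ values were 3, 5 and 14 reads and 2, 5 and 21 reads, and the second fold change was 4.20 (SE 1.51) without untreated and 1.90 (SE 1.33) without IC replicate 3 of MHCII+CD11c+ cells.

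Sod2, the mitochondrial superoxide dismutase, was after IC at 121, 114 and 94.6 CPM in LYVE1+CX3CR1+, 88.9, 79.1 and 139 CPM in MHCII+CD11c- and 145, 120 and 110 CPM in MHCII+CD11c+ cells. The IC libraries of each subset lay above its untreated ones, with log2 fold changes of 0.42 (SE 0.21), 0.86 (SE 0.24) and 0.59 (SE 0.21), and after IC the 3 subsets overlapped.

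Nos2 had no read in the 6 LYVE1+CX3CR1+ libraries. It had 4 reads in 1 untreated MHCII+CD11c- library and 2 in 1 IC library of that subset, and 3, 1 and 3 reads in the MHCII+CD11c+ libraries after IC (4.63, 0.786 and 1.83 CPM) against none before. These values are at or near the limit of 3 reads per library, and no fold is given.

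Neutrophil markers were higher after IC in the MHCII+ subsets as well. In MHCII+CD11c+ cells 6 of 17 tested genes of the neutrophil list were called higher, with S100a8 going from 35.4 ± 46.1 to 286 ± 118 CPM (SD, n = 3; adjusted p = 0.032, edgeR; lost without untreated replicate 2, adjusted p = 0.103, or 3, 0.175, or IC replicate 2, 0.0718, or 3, 0.171, and in DESeq2, which called 5). In MHCII+CD11c- cells 1 was called (2 in DESeq2), and in LYVE1+CX3CR1+ cells none (1 in DESeq2). The counts at an unadjusted p under 0.05 in edgeR were 15, 10 and 7 of 17 in MHCII+CD11c+, MHCII+CD11c- and LYVE1+CX3CR1+ cells. The median log2 fold changes of the list were 2.615, 1.63 and 1.68, in the same order. Of all genes tested, 0.483%, 0.55% and 0.246% were called higher. The plot of gene against marker levels shows how they lay in single libraries. Untreated MHCII+CD11c- replicate 1 had a marker sum of 2408 CPM, with Irg1 at 13.9, Lrg1 at 6.98 and Trem1 at 33.7 CPM. IC replicates 1 and 2 of that subset had lower sums, 2233 and 1853 CPM, with Irg1 at 75.8 and 45.2, Lrg1 at 34 and 18.8 and Trem1 at 60.1 and 37.6 CPM. Single markers differed in direction between these libraries. S100a8 was higher in those IC replicates (295.5 and 312.5 against 184.9 CPM), as was S100a9 (580.5 and 576.1 against 473.2 CPM). Ngp was lower (292.9 and 338.9 against 590.6 CPM), as was Ltf (282.4 and 124.3 against 390.7 CPM). IC replicate 3 had the highest sum of the 18 libraries, 5539 CPM, and the highest Irg1, Lrg1 and Trem1. In LYVE1+CX3CR1+ cells the sum was 25.6 to 30.7 CPM in untreated libraries and 19.7, 215 and 32.2 CPM in IC replicates 1 to 3. The part of neutrophil RNA in the values of the effector genes was not tested.

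Monocyte markers moved with IC in the same subsets. Of 18 tested genes of that list 4 were called higher in MHCII+CD11c+ cells (Hp, Treml4, Plac8 and Vcan; median log2 fold change of the list 1.22), 2 in MHCII+CD11c- cells (Ms4a4c and Plac8; 0.91) and none in LYVE1+CX3CR1+ cells (0.31; 5 at an unadjusted p under 0.05), and DESeq2 called 4, 2 and 0. Vcan went from 12 ± 1 to 49.9 ± 9.61 CPM (SD, n = 3) in MHCII+CD11c+ cells (adjusted p = 0.00013, edgeR), and Ms4a4c, a membrane-spanning 4-domain gene, from 9.72 ± 1.55 to 81 ± 44.2 CPM in MHCII+CD11c- cells (adjusted p = 0.00125). Both calls held whichever library was left out. The call of Plac8 was lost in DESeq2 in both subsets, in all 6 fits without 1 library in MHCII+CD11c+ cells and in 3 of 6 in MHCII+CD11c- cells, and that of Treml4 in 5 of 6. The summed list, which holds genes that these macrophages express, overlapped between untreated and IC libraries in both MHCII+ subsets, at 10010 to 12170 and 10610 to 12090 CPM in MHCII+CD11c+ and at 6744 to 10130 and 5554 to 13050 CPM in MHCII+CD11c- cells, and was 8533 to 9694 and 10800 to 12120 CPM in LYVE1+CX3CR1+ cells. The part of monocyte RNA in the values of the effector genes was not tested. The sum of 8 mast cell markers was 6.11 to 224 CPM in untreated and 136 to 550 CPM in IC libraries of MHCII+CD11c- cells. It was 11.6 to 86.8 and 52.45 to 279 CPM in MHCII+CD11c+ cells and 53.3 CPM or lower in LYVE1+CX3CR1+ cells. Of the 7 tested, edgeR called none with IC in any subset, and the part of mast cell RNA was not tested. Dendritic cell markers had median log2 fold changes of -1.5, -1.21 and -0.354 in LYVE1+CX3CR1+, MHCII+CD11c- and MHCII+CD11c+ cells. Of these, Cd209a was called lower with IC in MHCII+CD11c- (adjusted p = 0.0364, edgeR) and MHCII+CD11c+ cells (0.0136). The T and NK cell marker Cd2 was called lower in MHCII+CD11c- cells (0.0364). Each of these calls was lost in some fits that left out 1 library.

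**Figure D3:**
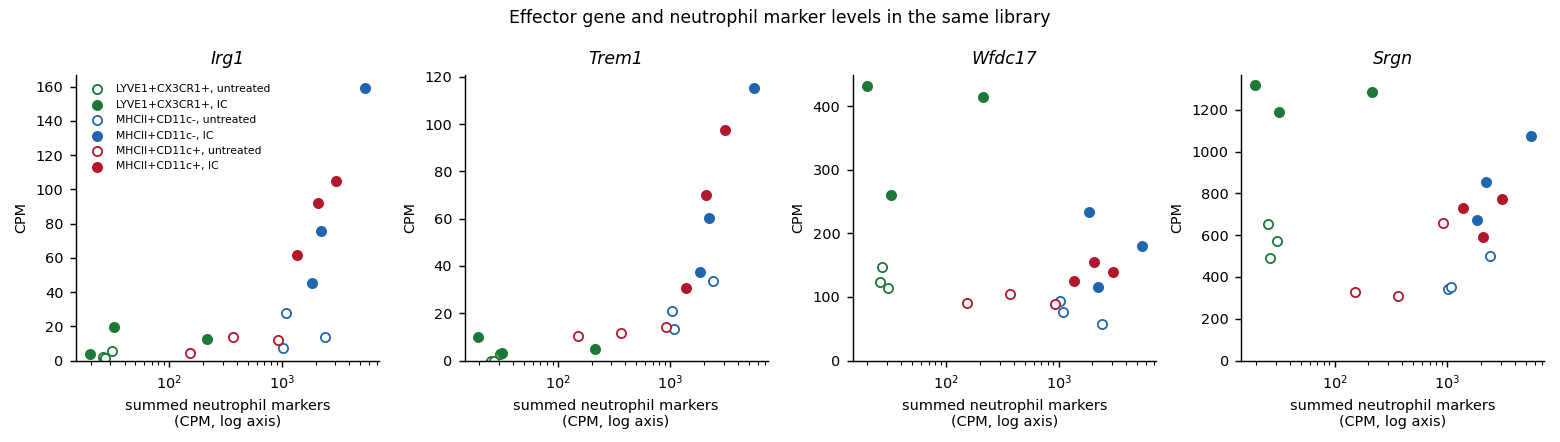
CPM of Irg1, Trem1, Wfdc17 and Srgn against the summed CPM of 23 neutrophil markers (log axis) in each of the 18 libraries, coloured by subset and filled for IC. Wfdc17 and Srgn were highest in LYVE1+CX3CR1+ libraries, whose marker sums were 215 CPM or lower, and Irg1 and Trem1 were highest in the library with the highest marker sum, 5539 CPM.

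Over the 18 libraries the genes varied in 2 blocks. As a description, with libraries that share treatment, subset and depth, Pearson's r of log2 CPM was 0.92 between Irg1 and Lrg1, 0.87 between Irg1 and Slpi and 0.87 between Irg1 and Trem1. It was 0.83 between Bst1 and Srgn, 0.78 between Wfdc17 and Srgn and 0.72 between Bst1 and Wfdc17. Between Irg1, Lrg1, Trem1 and Slpi on one side and Bst1, Wfdc17 and Srgn on the other it ran from -0.12 for Wfdc17 and Trem1 to 0.34 for Lrg1 and Srgn. Saa3 had 0.58 to 0.74 with the first of these sets and 0.32 to 0.42 with the second. Sod2 stood between, with 0.68 to Saa3 and 0.61 to Srgn.

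**Figure D4:**
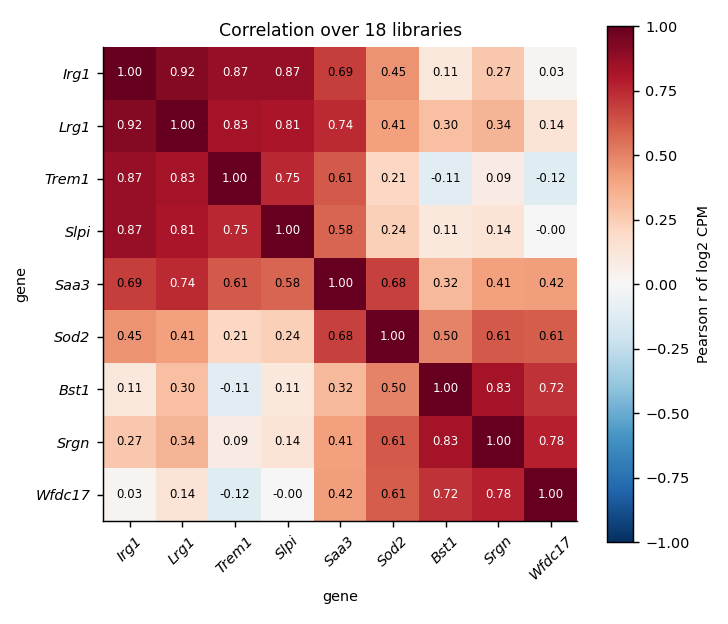
Pearson's r of log2 CPM over the 18 libraries for each pair of the 9 effector genes that passed the filter, on a colour scale from -1 to 1. Irg1, Lrg1, Trem1 and Slpi form one block, with r from 0.75 to 0.92, and Bst1, Srgn and Wfdc17 another, with r from 0.72 to 0.83.

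Among all genes tested, those most like Irg1 over the 18 libraries were Lrg1 (r = 0.92), the haptoglobin gene Hp (0.91) and Clec4e (0.88), which encodes the C-type lectin Mincle. Trem1 was most like Clec4e (0.95), Ifitm3 (0.92) and Hp (0.92), and Lrg1 was most like Chil1 (0.92), Irg1 (0.92) and the G-CSF receptor gene Csf3r (0.90). Chil1 and Csf3r are among the neutrophil markers, and Hp is among the monocyte markers. The part of such cells in these correlations was not tested. Slpi was closest to Cmpk2 (0.89), Irg1 (0.87) and Slfn4 (0.86), and Saa3 to Cd300e (0.84), Eif4a1 (0.82) and Fpr1 (0.80). The neighbours of the other block differed: Plod1 (0.94), Slc7a7 (0.92) and Dnajc10 (0.92) for Bst1, Arpc3 (0.90), Mylip (0.88) and Ms4a6d (0.85) for Wfdc17, and Pdpn, Ap2m1 (both 0.89) and Anxa4 (0.88) for Srgn. Sod2 was most like Psmc1 (0.88), Nme2 (0.84) and Letm1 (0.82).

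Other genes of the same pathways were counted in lists that leave out the 10 effector genes, with the median over all tested genes between -0.015 and -0.0072 (log2) for IC in the 3 subsets. None of the 27 tested genes of the TCA cycle and itaconate handling was called with IC in any subset, although Irg1 draws on that cycle, and their median log2 fold changes were 0.036, 0.10 and 0.086 in LYVE1+CX3CR1+, MHCII+CD11c- and MHCII+CD11c+ cells. Their counts at an unadjusted p under 0.05 in edgeR were 1, 2 and 1, and DESeq2 called 0, 2 and 0. None of the 16 tested genes of arginine and nitric oxide metabolism was called (medians -0.059, -0.0083 and 0.016; 0, 2 and 4 at an unadjusted p under 0.05), and DESeq2 called 0, 1 and 1, the latter being Ass1, which encodes the enzyme that rebuilds arginine from citrulline. Of 18 genes of NAD consumption and salvage edgeR called none (medians 0.10, 0.22 and 0.54; 4, 2 and 5 unadjusted) and DESeq2 0, 1 and 1. Of the 15 of the endoglin and ALK1 branch of TGF-beta signalling, the partner of Lrg1, edgeR called none (medians -0.33, -0.31 and -0.016; 2, 3 and 1 unadjusted) and DESeq2 0, 1 and 0.

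The acute-phase list held calls with IC in the MHCII+ subsets. Of 16 tested genes, none was called in LYVE1+CX3CR1+ cells (5 at an unadjusted p under 0.05, 0 in DESeq2), 1 higher in MHCII+CD11c- cells and 3 higher in MHCII+CD11c+ cells (medians 0.25, 0.33 and 0.55). Hp, which encodes the haemoglobin-binding haptoglobin, rose in MHCII+CD11c+ cells from 8.06 ± 6.46 to 88.7 ± 30.1 CPM (log2 fold change 3.42, SE 0.51, adjusted p = 0.000999, edgeR), and it is also among the monocyte markers. Lcn2, the siderophore-binding lipocalin, rose there from 18.1 ± 17 to 216 ± 80.8 CPM (3.54, SE 0.71, adjusted p = 0.0152), a call lost without untreated replicate 2 (adjusted p = 0.0989) or 3 (0.0885) or IC replicate 3 (0.1) and in DESeq2, and it is also among the neutrophil markers. DESeq2 called 2 genes of the list in MHCII+CD11c- cells (Il6st and Cfb) and 3 in MHCII+CD11c+ cells (Lifr, Cp and Hp). Of 31 genes of oxidant defence 1 was called in LYVE1+CX3CR1+ cells, the metallothionein gene Mt1, from 77.8 ± 12.1 to 196 ± 50.8 CPM (1.33, SE 0.23, adjusted p = 0.00432, edgeR; lost without untreated replicate 2, adjusted p = 0.0519, or IC replicate 1, 0.0746), and 1 in MHCII+CD11c+ cells (medians of the list 0.20, 0.085 and 0.22).

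Of the 20 tested genes around the TREM receptors 1 was called with IC, in MHCII+CD11c+ cells (medians 0.098, 0.16 and 0.18), of 23 proteoglycan genes 1, in the same subset (0.051, -0.15 and -0.030), and of 32 regulators of NF-kB, C/EBP and STAT signalling 2 in MHCII+CD11c- and 1 in MHCII+CD11c+ cells (0.035, -0.046 and -0.040). In LYVE1+CX3CR1+ cells edgeR called none of these 3 lists, with 1, 3 and 5 genes at an unadjusted p under 0.05 and 0, 2 and 0 called in DESeq2, and in MHCII+CD11c- cells none of the first 2, with 4 and 4 unadjusted and 2 and 1 in DESeq2. All calls named from these lists were higher with IC. Hp kept its call whichever library was left out. The 8 calls other than those of Hp, Lcn2 and Mt1 (Cfb, Cp, Hmox1, Treml4, Sdc4, Ikbke and, in both MHCII+ subsets, Irf7) were each lost in 3 to 6 of the 6 fits that left out 1 library, with highest adjusted p-values of 0.0759 to 0.368 (edgeR). Those of Cfb, Ikbke and Irf7 in MHCII+CD11c- cells were also lost with only the libraries compared, and that of Cp with the replicate block.

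Untreated subsets were compared over the same lists. Of all genes tested, 11.4% were called, in either direction, between LYVE1+CX3CR1+ and MHCII+CD11c- cells. Counts of a list near that share are not read as a result of the list. Of the 20 TREM-related genes 8 were lower and 1 higher in LYVE1+CX3CR1+ than in MHCII+CD11c- cells, with a median log2 difference of -0.49 (all genes -0.019). Treml2, another TREM family receptor, was at a mean of 0.209 against 15.1 CPM (adjusted p = 0.000576, edgeR). The acute-phase list was 8 lower and 1 higher of 16 (median -1.53). Lcn2 was at 0 against 98.5 CPM (adjusted p = 0.000162, edgeR) and Hp at 0 against 28.3 CPM (adjusted p = 2.33e-05, edgeR). Lcn2 is also among the neutrophil and Hp among the monocyte markers. Neutrophil markers summed to 1029 to 2408 CPM in these MHCII+CD11c- and 25.6 to 30.7 CPM in these LYVE1+CX3CR1+ libraries. The part of such cells in the list differences, here and against MHCII+CD11c+ cells, was not tested. The NF-kB, C/EBP and STAT list was 8 lower and none higher of 32 (median -0.51), with the A20-binding inhibitor Tnip3 at 0.404 against 36.6 CPM (adjusted p = 6.89e-07, edgeR). In the TCA list 1 of 27 was called. Of 15 endoglin-branch genes 3 were higher and none lower (median 0.30), with the type I receptor gene Tgfbr1 at 258 against 113 CPM (1.20, SE 0.20, adjusted p = 0.000223, edgeR). The counts of higher and lower genes were 2 and 1 of 16 for arginine and nitric oxide metabolism, 1 and 2 of 18 for NAD, 1 and 3 of 31 for oxidant defence and 0 and 5 of 23 for proteoglycans.

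Against MHCII+CD11c+ cells, LYVE1+CX3CR1+ cells had 3 higher and 8 lower of the TREM-related genes (median -0.54, all genes -0.018), 1 and 7 of the acute-phase genes (-2.06), 2 and 11 of the NF-kB, C/EBP and STAT list (-0.44) and 1 and 2 of the TCA list (0.022). Of the 15 endoglin-branch genes 8 were higher and 2 lower (0.84). Among them the endoglin gene Eng was higher (0.95, SE 0.26, adjusted p = 0.0091, edgeR). Acvrl1, which encodes ALK1, was lower (-0.83, SE 0.22, adjusted p = 0.00608), as was the helix-loop-helix inhibitor gene Id2 (-0.76, SE 0.21, adjusted p = 0.00851). The counts were 2 and 0 for arginine and nitric oxide, 2 and 2 for NAD, 2 and 7 for oxidant defence and 1 and 6 for proteoglycans. All these counts stand beside 21.8% of all genes called, in either direction, between these subsets. Between the MHCII+ subsets at most 2 genes of any of these lists were called, where 3.49% of all genes were.

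Whether the response to IC itself differed between subsets was tested for the listed genes with an interaction contrast. None of all genes tested passed between LYVE1+CX3CR1+ and MHCII+CD11c- cells in edgeR (0.0%; 688 had an unadjusted p under 0.05, and 12 passed in DESeq2). In each of the other 2 pairs of subsets 1 gene passed (0.00948%), Vcan between LYVE1+CX3CR1+ and MHCII+CD11c+ cells and Akap11 between the MHCII+ subsets, the latter in no list and named after its values were seen. For the effector genes the differences of response are a description. They went from -1.05 (log2, SE 0.88) for Irg1 to 0.96 (SE 0.31) for Wfdc17 between LYVE1+CX3CR1+ and MHCII+CD11c+ cells, with Bst1 at -0.96 (SE 0.39) and Srgn at 0.45 (SE 0.32).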

How the data were processed

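RNA of 18 sorted synovial macrophage pools was sequenced. The deposited values were raw counts per gene symbol; the authors trimmed reads with Trim Galore, checked them with FastQC, aligned them to mm10 with HISAT2 and counted them with featureCounts, per the submitters' processing notes and the study's methods. Tool versions, the annotation, strand use and the handling of duplicate and multi-mapped reads were not given in the sources used here. Libraries were prepared from total RNA (SMARTer Stranded Pico kit), each from pooled mice, so p-values measure the spread between pools. Libraries of Fcgr2b-deficient mice were not analysed here.

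Counts were fitted with edgeR 4.0.16 (R 4.3.3) by glmQLFit and glmQLFTest over all 18 libraries in 6 groups, with TMM factors, filterByExpr (minimum count 10) and Benjamini-Hochberg adjustment over 10550 genes at 0.05. SE is the log2 fold change over the square root of F. CPM used the TMM library sizes, correlations log2 CPM with a prior count of 2. A group with no read was set to a floor of 3 reads per library, and groups with 1 to 3 reads got a ratio with an exact 95% conditional binomial interval. No 2 replicates agreed within sampling noise. Exon lengths are unions from GENCODE M21 (GRCm38), and all 10 symbols matched RefSeq, Irg1 as a synonym of Acod1. The fit was tested on simulated counts. Alternatives were DESeq2 1.42.0, its size factors, sva 3.50.0, 2 other filters, the compared libraries alone, replicate blocks and leaving out each library. The genes and lists were chosen with earlier results of these data known. The text names all 10 genes and, for each gene tested, its 3 most correlated genes. Genes of the reported pathway lists that were called with IC are all named. Of the list genes called between untreated subsets, and of the cell type markers, only some are named. These were not taken in order of size, and the rest are counted. The list of protease inhibitors is not reported here.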

Additional observations from a re-analysis of the deposited data

Results flagged for a closer look

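Vcan, which encodes the proteoglycan versican and was on the list of monocyte markers, responded to IC differently in LYVE1+CX3CR1+ and MHCII+CD11c+ cells by the interaction test (log2 difference -2.23, SE 0.33, adjusted p = 0.00501, edgeR). It was at 517 ± 58.0 CPM (SD, n = 3) untreated and 464 ± 85.8 CPM after IC in LYVE1+CX3CR1+ cells, and at 12 ± 1 and 49.9 ± 9.61 CPM in MHCII+CD11c+ cells. The call was lost without IC replicate 3 of MHCII+CD11c+ cells (adjusted p = 0.116).

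Akap11, which encodes an anchoring protein of protein kinase A, passed the interaction test between the MHCII+ subsets (-2.32, adjusted p = 0.0454, edgeR). It went from 64.2 ± 7.61 to 30.2 ± 7.38 CPM with IC in MHCII+CD11c+ cells and from 26.5 ± 2.93 to 61.5 ± 12.5 CPM in MHCII+CD11c- cells. This call held in 2 of the 12 fits that left out 1 library, with adjusted p-values up to 0.309 in the others, and was lost with only the compared libraries (0.179), with the replicate block (0.088) and with the block by pool (0.0605).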

How the results depend on the processing

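The genes called with IC numbered 49 in LYVE1+CX3CR1+, 112 in MHCII+CD11c- and 71 in MHCII+CD11c+ cells. They numbered 154, 280 and 157 with DESeq2's Wald test, 160, 337 and 250 with no filter on low counts, 272, 19 and 170 with only the libraries compared, and 99, 206 and 133 with 1 surrogate variable. Leaving out 1 library gave 13 to 53, 52 to 182 and 14 to 63. Between untreated subsets, 1207, 2303 and 368 genes were called (LYVE1+CX3CR1+ against MHCII+CD11c-, against MHCII+CD11c+, and between the MHCII+ subsets). The first were 750 and the second 1291 when 10 counts were required in each library, which leaves fewer genes to test, and the last were 581 with the Wald test, 578 with no filter and 587 with a surrogate variable. Leaving out 1 library gave 805 to 1018, 1815 to 1960 and 187 to 409. The genes whose IC response differed numbered 0, 1 and 1 in the same order of pairs. The first were 12 with the Wald test, 20 with no filter and 1 with a surrogate variable, the second 11, 27 and 2, and 4 with only the libraries compared, and the last 29 with no filter and 0 with only the libraries compared. Leaving out 1 library gave 0 to 1 in each. Where not stated otherwise, the cause of these changes was not tested.

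No source used here says what a replicate number shared between groups marks. Same-numbered untreated and IC libraries of a subset had correlations of their deviations of -0.0268 to 0.0393. Those of 2 subsets under the same treatment had -0.0455 to 0.132 (median 0.036, 1 of 18 pairs over 0.1), against -0.13 to 0.078 (median -0.0247) for different numbers, so the pairing was not established. Of the 18 libraries, 8 were closest to the one of their own number. With the replicate number as a block, 60, 120 and 79 genes were called with IC and 1220, 2306 and 399 between untreated subsets, the last pair had 0 genes whose response differed, and with the block by pool the second and the last had 2 and 2, Akap11 not among them. The block put Irg1 past the threshold between untreated LYVE1+CX3CR1+ and MHCII+CD11c+ cells (-1.84, adjusted p = 0.0123, edgeR; by pool -1.81, 0.00824), as did DESeq2 (-1.80, 0.0246) and no filter (-1.74, 0.00326), and the block by pool also Srgn between LYVE1+CX3CR1+ and both other subsets (0.54 and 0.47, adjusted p = 0.0315 and 0.0366).

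The near-zero difference of Sod2 between untreated LYVE1+CX3CR1+ and MHCII+CD11c+ cells (-0.00065) changed sign in most alternatives: 0.0022 with DESeq2's size factors, 0.0013 with its Wald test, 0.025 with no filter, 0.0015 with the compared libraries alone, 0.0076 with the replicate block, 0.0088 with the block by pool and -0.073 to 0.086 without 1 library. Without 1 library, the difference of untreated Slpi between these subsets (-0.99) ran from -3.34 to 0.36 and that of Srgn between MHCII+CD11c+ and MHCII+CD11c- cells (0.12) from -0.32 to 0.31. After IC, the differences between the latter subsets ran from -0.46 to 0.50 for Irg1, -0.47 to 0.61 for Lrg1 and -0.56 to 0.45 for Trem1. None of these passed a test or was given one. Where a fitted IC fold change of an effector gene is given above, it was not checked with a surrogate variable or with the filter that required counts in each library. In the other alternatives it kept its direction. The genes were picked partly on this contrast, so nothing is read from that. Saa3 and Nos2 in all subsets, Lrg1 in LYVE1+CX3CR1+ and MHCII+CD11c+ cells and Slpi in LYVE1+CX3CR1+ cells were not checked. Depth limited Slpi, with 21 reads or fewer in any library, Nos2, with 4 or fewer, and the untreated and LYVE1+CX3CR1+ values of Saa3 and Lrg1, with 12 or fewer.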

Other observations

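Fcgr1, the high-affinity receptor for IgG that binds immune complexes, was on the list of macrophage and sort markers and is named here after its values were seen. It rose with IC in all 3 subsets: from 58.8 ± 1.51 to 117 ± 17.3 CPM (SD, n = 3) in LYVE1+CX3CR1+ cells (log2 fold change 0.99, SE 0.21, adjusted p = 0.0213, edgeR), from 81.4 ± 14.1 to 190 ± 55.8 CPM in MHCII+CD11c- cells (1.18, SE 0.22, adjusted p = 0.00685) and from 51.5 ± 3.49 to 123 ± 13.6 CPM in MHCII+CD11c+ cells (1.25, SE 0.21, adjusted p = 0.00336). In the first subset the call was lost without untreated replicate 1 (adjusted p = 0.13), 2 (0.0872) or 3 (0.104) or IC replicate 1 (0.0936) or 2 (0.174), and in MHCII+CD11c- cells it was lost when only the libraries compared were fitted. In MHCII+CD11c- cells the MHCII chain gene H2-Aa fell from 2950 ± 120 to 1642 ± 245 CPM (-0.84, SE 0.14, adjusted p = 0.00212, edgeR), a call that held whichever library was left out and was lost with the compared libraries alone. Itgax was higher with IC in that subset (2.75, adjusted p = 0.0261, edgeR), a call lost in DESeq2 and with the compared libraries alone. In MHCII+CD11c+ cells Lyve1 (1.54, adjusted p = 0.00881, edgeR), Vsig4 (1.17, 0.0145) and Cx3cr1 (0.85, 0.0471) were called higher with IC. The calls of Itgax, Lyve1, Vsig4 and Cx3cr1 were each lost in some fits that left out 1 library.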
